A study of Mus musculus with 12 samples.

Results

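The genes described here are 10 members of the Wnt pathway, chosen by symbol from the 24098 genes of an expression table of fibroblasts under conversion to pluripotent cells. They are the ligands Wnt5a, Wnt5b and Wnt7b, the secreted inhibitors Sfrp1, Sfrp2 and Dkk1, the feedback inhibitor Axin2, and the DNA-binding factors Tcf7, Tcf7l1 and Lef1. All 10 were in the table, and all 10 reached 1 FPKM (a fragment count normalised to transcript length and library size) in at least 1 library, as 14178 genes did.

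Polyadenylated RNA of 12 conditions was sequenced, with 1 library per condition and no replicates. Mouse embryonic fibroblasts (MEFs) with a GFP reporter at Oct4 received the factors Oct4, Klf4, Sox2 and c-Myc (OSKM) by infection with pMXs retroviruses. D0 were the MEFs on day 0, in serum medium, and D3 were unsorted cells on day 3. On days 6 and 9 the cells were sorted on Thy-1, a surface protein of fibroblasts, into D6T- and D9T- (negative) and D6T+ and D9T+ (positive). On days 12 and 16 they were sorted on SSEA-1, a surface carbohydrate of mouse pluripotent cells, into D12S+ and D16S+ (positive) and D12S- and D16S- (negative). The study treats D6T-, D9T-, D12S+ and D16S+ as the successful route and the other sorted fractions as the unsuccessful route. Induced pluripotent stem cells (iPSCs) and the mouse embryonic stem cell (mESC) line ESD3 (ES-D3 in the methods of the study) were the end points.

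The medium has to be considered for these genes, and its effect on them was not tested. The labels say that the infected cells were kept in FF medium, which holds LIF, basic FGF, ascorbic acid, N-2 supplement and CHIR99021, an inhibitor of the kinase GSK3 that switches on canonical Wnt signalling. The methods of the study name FF medium as 1 of 3 media used for reprogramming, and the other media lack CHIR99021. The MEF medium of D0 lacks it too, so OSKM and the medium cannot be told apart in any comparison with D0. The labels also place the iPSCs and mESCs in FF medium, whereas the methods describe serum or serum replacement media without CHIR99021 for such cells. Which libraries had the inhibitor is therefore uncertain beyond the labels.

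Wnt ligands are secreted proteins that bind Frizzled receptors. In the canonical branch the signal blocks GSK3, beta-catenin accumulates and joins TCF/LEF factors on DNA, and targets such as Axin2 are transcribed. Wnt5a and Wnt5b act mainly without beta-catenin. In mouse embryonic stem cells canonical Wnt signalling favours self-renewal, in large part by lifting the repression of pluripotency genes by Tcf7l1 (also called Tcf3), while Tcf7 and Lef1 are mostly activators.

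The TCF/LEF factors read the signal at motifs of the type CTTTGAT, so the start regions of the members were searched for these letters. The windows run from 250 bases before to 50 bases after an annotated start, and 7 of the 10 members had at least 1 window, 13 windows in all (RefSeq, GRCm38.p6, a build other than the mm9 build of the expression values). Wnt5a, Wnt7b and Sfrp1 had no entry. On either strand, CTTTGAT was in 1 of the 13 windows, a window of Wnt5b, and in 3.73% of all 32851 windows. Its shorter core CTTTG, which CTTTGAT contains, was in 8 of the 13 windows, of Wnt5b, Dkk1, Tcf7l1 and Lef1, and in 53.9% of all windows. Lef1 and Wnt5b each had more than 1 of these windows, and some windows of Lef1 overlapped and shared matches. The octamer ATTTGCAT, which Oct4 binds, was in 1 of the 13 windows, that of Sfrp2, and in 1.74% of all windows. A match of letters is a description and not a binding site. Shown first are a window of Axin2, the feedback gene of the pathway, and the most upstream window of Lef1, the member furthest apart between the late fractions. Then follow the stretch of Wnt5b around CTTTGAT and that of Sfrp2 around ATTTGCAT. Capitals mark CTTTG in Lef1, CTTTGAT in Wnt5b and ATTTGCAT in Sfrp2, and the window of Axin2 holds none of the 3 motifs.
Axin2, chr11:108920099-108920398, plus strand: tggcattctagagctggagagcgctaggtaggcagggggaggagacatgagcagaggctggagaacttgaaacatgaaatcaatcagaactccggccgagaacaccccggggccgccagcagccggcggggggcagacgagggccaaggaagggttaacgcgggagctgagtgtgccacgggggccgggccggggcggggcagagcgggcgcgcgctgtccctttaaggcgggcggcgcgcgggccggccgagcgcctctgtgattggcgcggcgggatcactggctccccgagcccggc
Lef1, chr3:131110047-131110346, plus strand: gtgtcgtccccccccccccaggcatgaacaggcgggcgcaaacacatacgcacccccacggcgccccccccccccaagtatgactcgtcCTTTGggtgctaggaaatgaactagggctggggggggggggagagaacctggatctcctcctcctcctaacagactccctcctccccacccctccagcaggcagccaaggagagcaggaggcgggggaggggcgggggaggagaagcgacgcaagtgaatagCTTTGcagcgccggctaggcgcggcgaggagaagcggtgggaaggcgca
Wnt5b, chr6:119449421-119449487, minus strand: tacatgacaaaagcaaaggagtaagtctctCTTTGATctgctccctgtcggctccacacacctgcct
Sfrp2, chr3:83766244-83766311, plus strand: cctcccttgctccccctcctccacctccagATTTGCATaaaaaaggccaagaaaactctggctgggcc

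The libraries were checked against markers before the members were read. The summed FPKM of 7 fibroblast markers was 6058 in D0, 2017 in D6T+ and 236 in D6T-, and it was 421 in D16S- and 33.0 in D16S+. The summed FPKM of 6 pluripotency markers was 2.11 in D0, 130 in D16S-, 4674 in D16S+, 3423 in iPSCs and 4019 in mESCs. Both sets follow the labels. The sum of 4 leukocyte markers ran from 10.8 in D0 to 135 in D16S-, of which Cd68 was 115 and Csf1r 19.9, while Ptprc and Emr1 were at no more than 0.425 and 0.192 FPKM in any library. The sum of 4 epidermal markers ran from 0.497 in mESCs to 45.9 in D16S-. Total FPKM per library ranged from 484968 to 648264, and the estimated depth relative to D0 from 0.967 to 1.56. Because these are bulk samples, fewer cells of a type and less RNA per cell cannot be told apart.

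Differences are given as log2(FPKM + 1) of the first library minus that of the other, where 1 stands for 2-fold. This scale understates the change of low genes. With 1 library per condition there is no test and no replicate check, and counts of genes at least 2-fold apart on this scale are descriptions, to be read beside the same share of all 14178 genes. The interval that the authors' software modelled for each FPKM was wide, and for Wnt5a in D0 it ran from 0 to 203 FPKM. For no member did the intervals of the 2 libraries separate in any of the 9 comparisons, so the order of libraries given below is that of the point values alone. Few genes of any kind had separate intervals. Of all 14178 genes, at most 140 did, between iPSCs and D0, and 0 did between the fractions of days 6, 9 and 12. D3, D16S+, D16S- and iPSCs were all compared with the same D0 library, and iPSCs and D16S+ each entered more than 1 comparison.

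**Figure D1:**
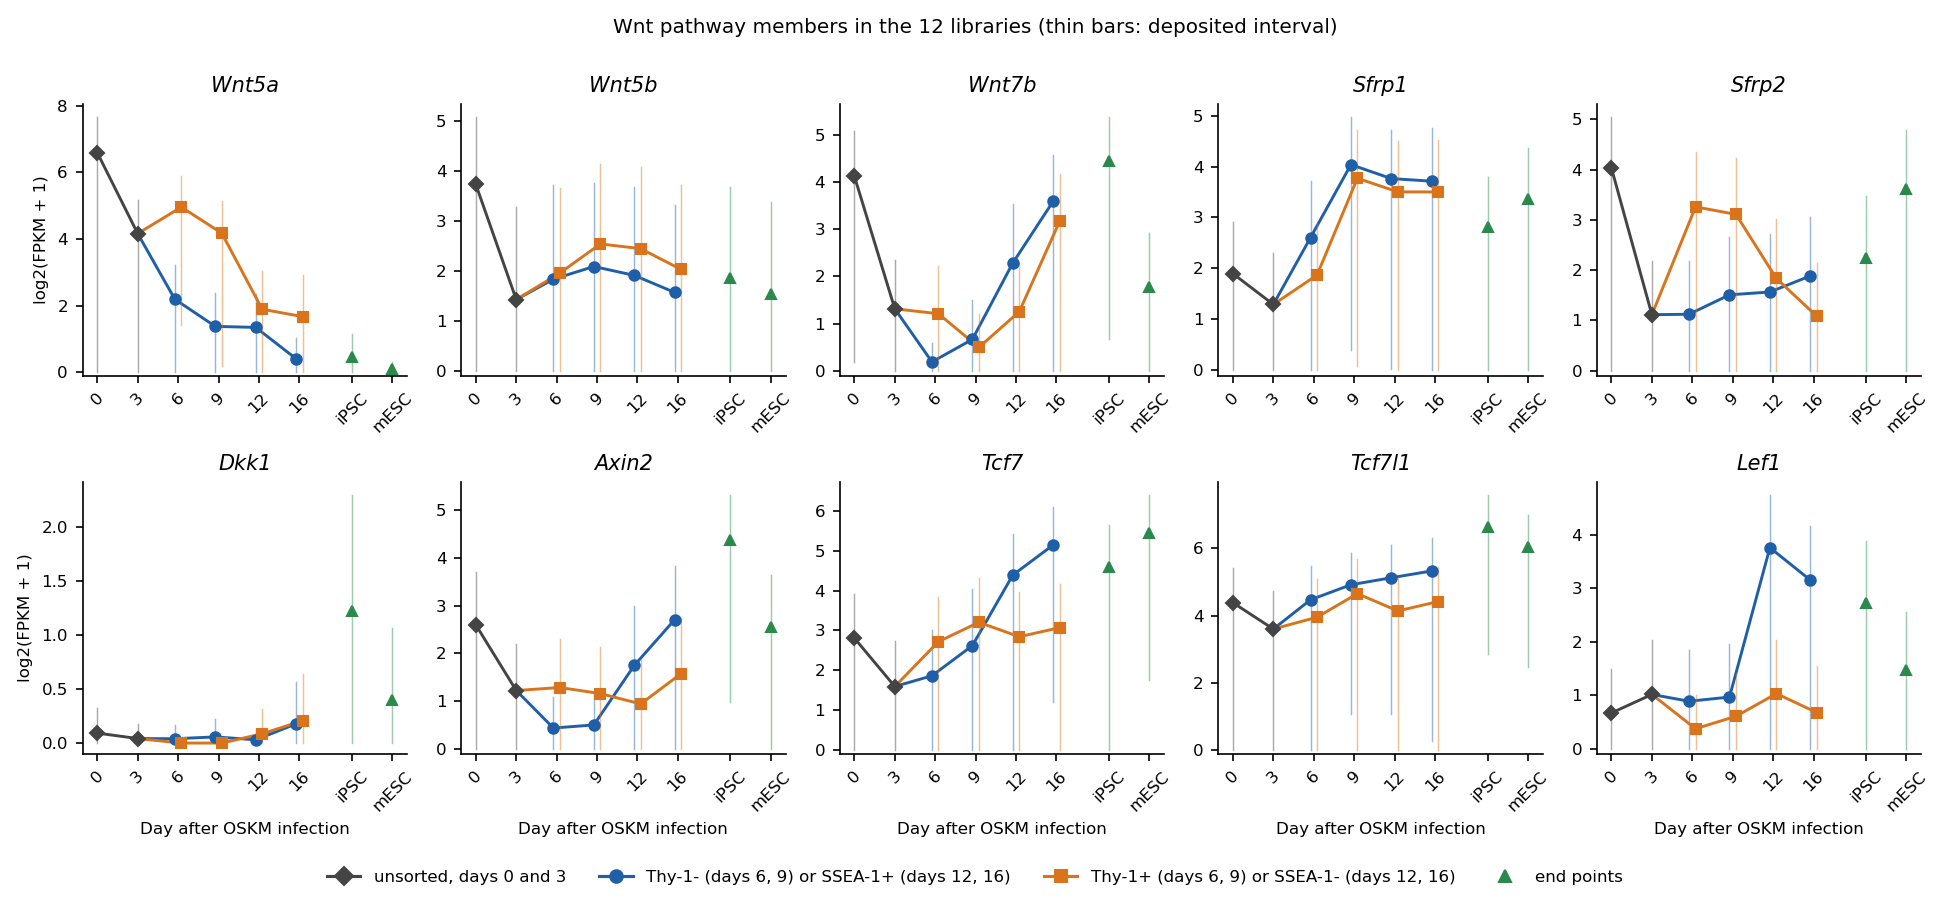
Level of each of the 10 members, as log2(FPKM + 1), against the day after OSKM infection and in the end points (iPSC, mESC); grey is unsorted D0 and D3, blue the Thy-1- or SSEA-1+ fractions, orange the Thy-1+ or SSEA-1- fractions and green the end points, 1 library per point, and thin bars are the deposited intervals. Wnt5a starts at 95.5 FPKM and ends below 1 FPKM in the end points. Tcf7, Lef1 and Axin2 are higher in the SSEA-1+ than in the SSEA-1- fraction on days 12 and 16, and Tcf7 and Axin2 are lower in the Thy-1- than in the Thy-1+ fraction on days 6 and 9.

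At the start of the conversion, the member ligands Wnt5a, Wnt5b and Wnt7b and the inhibitor Sfrp2 were much lower in D3 than in D0. Between D3 and D0, 6 of the 10 members were at least 2-fold lower and 0 were at least 2-fold higher, against 8.67% and 5.76% of all genes, or 14.4% in either direction. The 6 were Wnt5a, Wnt5b, Wnt7b, Sfrp2, Axin2 and Tcf7. Wnt ligand genes in general did not move 1 way. Of the 13 that reached 1 FPKM in any library, 3 were at least 2-fold higher and 3 lower, the lower ones being the members. The median difference of the members was -1.29, and that of all genes was -0.02. The summed fibroblast markers also went from 6058 to 1671 FPKM in this interval, and their part in these values was not tested.

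Wnt5a (mm9 chromosome 14, 29317936 to 29340633, plus strand) encodes a ligand of the branch without beta-catenin and is typical of mesenchyme. It stood at 95.5 FPKM in D0, 16.9 in D3, 3.56 in D6T-, 1.60 in D9T-, 1.54 in D12S+ and 0.322 in D16S+. In the other fractions it was at 30.1 FPKM in D6T+, 17.1 in D9T+, 2.71 in D12S- and 2.18 in D16S-, and in the end points at 0.374 in iPSCs and 0.0633 in mESCs. D0 was the highest library and mESCs the lowest, and the Thy-1+ or SSEA-1- fraction was the higher one on all 4 sorted days. The difference was -2.77 on day 6, -2.80 on day 9, -0.54 on day 12 and -1.27 on day 16. Between iPSCs and D0 it was -6.13, the lowest value of any member. The fibroblast markers were lower in the same fraction on each of the 4 days, and their part in the values of Wnt5a was not tested.

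Wnt5b (mm9 chromosome 6, 119382549 to 119494336, minus strand) encodes a close relative of Wnt5a. Its level was 12.3 FPKM in D0, 1.68 in D3, 2.57 in D6T-, 3.25 in D9T-, 2.76 in D12S+, 1.96 in D16S+, 2.64 in iPSCs and 1.90 in mESCs. It was 2.88 FPKM in D6T+, 4.82 in D9T+, 4.45 in D12S- and 3.08 in D16S-. Wnt5b thus left its D0 level by day 3 and stayed between 1.68 and 4.82 FPKM in the other 11 libraries, without the further decline of Wnt5a. The fractions of a day were less than 2-fold apart throughout, with differences from -0.54 on day 12 to -0.12 on day 6. The gene Fbxl14, at 13.2 FPKM in D0, lies inside the locus of Wnt5b on the opposite strand. Whether the counting used strand is not given in the sources used here, so reads of the overlap could be counted for either gene.

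Wnt7b (mm9 chromosome 15, 85365869 to 85412251, minus strand) encodes a ligand that can signal through beta-catenin. It was at 16.5 FPKM in D0, 1.49 in D3, 0.140 in D6T-, 0.587 in D9T-, 3.88 in D12S+, 11.1 in D16S+, 20.7 in iPSCs and 2.42 in mESCs. On the unsuccessful route it was at 1.31 FPKM in D6T+, 0.411 in D9T+, 1.39 in D12S- and 8.01 in D16S-. The level dropped below 1 FPKM in D6T-, D9T- and D9T+ and was higher again on both routes by day 16, and iPSCs ended near D0, with a difference of 0.31. Between D12S+ and D9T- the difference was 1.62. The fractions differed by -1.02 on day 6, 0.17 on day 9, 1.03 on day 12 and 0.42 on day 16, so the order of the fractions on day 6 was opposite to that of day 12. The 2 pluripotent libraries were far apart in Wnt7b, with a difference of 2.67 between iPSCs and mESCs, the largest of the 10 members in that comparison.

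The 3 ligands together held most of the ligand RNA at the start. FPKM are per length, so levels can be compared between genes. Of the summed FPKM of 19 Wnt ligand genes, Wnt5a held 69.9% and Wnt7b 12.0% in D0. In D3 the leading ligand was Wnt16, with 48.5% against 22.5% for Wnt5a, and in D6T- Wnt16 held 70.4%. In D6T+ and D9T+ Wnt5a was still the leading ligand, at 58.0% and 39.7%. Wnt8a led in D12S+ with 47.9%, and Wnt7b led in D16S+ with 34.5% and in iPSCs with 45.6%. In mESCs the leading ligand was Wnt9a with 25.1%, ahead of Wnt7b with 16.4%. Wnt8a also led in D12S- with 22.6% and in D16S- with 21.3%, and in D16S+ it was close behind Wnt7b with 32.1%. The summed ligand FPKM was itself highest in D0. The leading ligand differed between the fractions of days 6, 9 and 16, but not of day 12. Wnt16 was at 0.273 FPKM in D0, 36.4 in D3, 26.9 in D6T-, 7.52 in D6T+ and 0.520 in D16S+. Wnt8a was listed at 0 in D0 and stood at 7.03 FPKM in D9T-, 17.2 in D12S+, 10.3 in D16S+, 10.6 in D16S- and 3.22 in iPSCs.

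**Figure D2:**
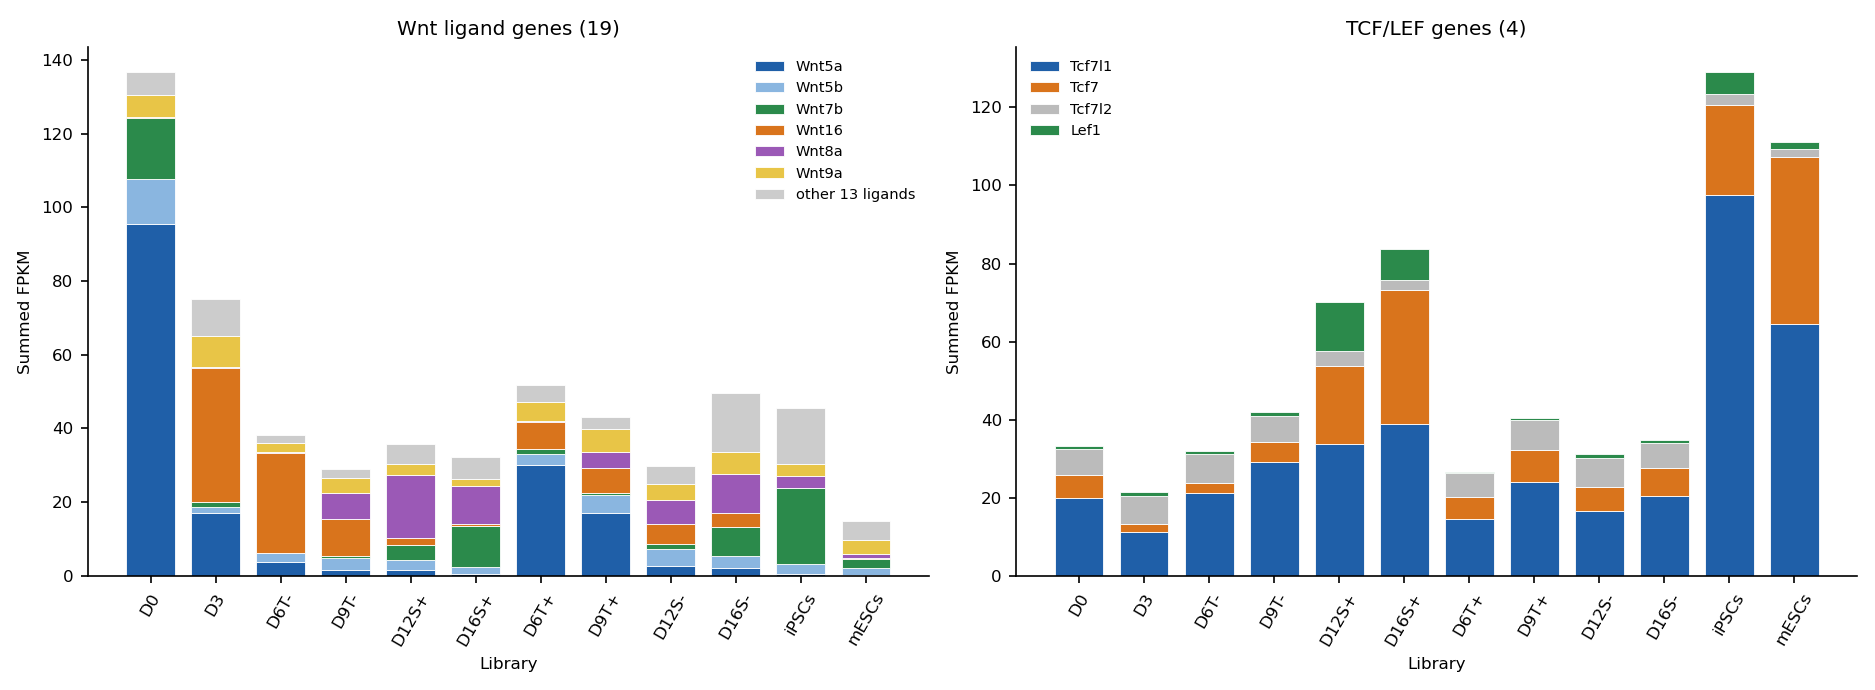
Summed FPKM of the 19 Wnt ligand genes (left) and the 4 TCF/LEF genes (right) in each of the 12 libraries, with each bar divided by gene. The ligand bar is mostly Wnt5a in D0 (69.9%) and mostly Wnt16 in D6T- (70.4%), and Tcf7l1 is the largest TCF/LEF gene in all 12 libraries.

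The secreted inhibitors did not share a course. Sfrp1 (mm9 chromosome 8, 24521974 to 24560104, plus strand) encodes a soluble Frizzled-related protein that binds Wnt ligands. It was at 2.73 FPKM in D0, 1.45 in D3, 5.09 in D6T-, 15.4 in D9T-, 12.6 in D12S+, 12.1 in D16S+, 6.02 in iPSCs and 9.34 in mESCs. The other fractions held 2.66 FPKM in D6T+, 12.6 in D9T+, 10.3 in D12S- and 10.3 in D16S-. Sfrp1 was thus at its highest on days 9 to 16 of both routes, with differences between fractions from 0.21 on day 16 to 0.74 on day 6. Against D0, D16S+ differed by 1.81 and D16S- by 1.60.

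Sfrp2 (mm9 chromosome 3, 83570243 to 83578238, plus strand) encodes a related protein, and its course was another one. It was at 15.3 FPKM in D0, 1.16 in D3, 1.17 in D6T-, 1.84 in D9T-, 1.96 in D12S+, 2.69 in D16S+, 3.72 in iPSCs and 11.3 in mESCs. The other fractions held 8.57 FPKM in D6T+, 7.63 in D9T+, 2.56 in D12S- and 1.12 in D16S-. On days 6 and 9 the Thy-1+ fraction was well above the Thy-1- fraction, and on day 16 the SSEA-1+ fraction was the higher one. The differences were -2.14 on day 6, -1.60 on day 9, -0.27 on day 12 and 0.80 on day 16. Summed fibroblast markers were lower on the successful route on all 4 days, day 16 included, and their part in the values of Sfrp2 was not tested. Sfrp2 was also lower in iPSCs than in mESCs, with a difference of -1.38, and was the only member at least 2-fold lower in that comparison.

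Dkk1 (mm9 chromosome 19, 30620353 to 30624155, minus strand) encodes an inhibitor that binds the LRP co-receptors and is itself a target of canonical Wnt signalling. It reached 1 FPKM in 1 library, iPSCs, at 1.33 FPKM, and was at 0.320 FPKM in mESCs. In the libraries of days 0 to 16 it lay between 0.0211 FPKM in D12S+ and 0.154 in D16S-, apart from D6T+ and D9T+, where it was listed at 0. The difference between iPSCs and D0 was 1.13. At these levels no difference between the sorted fractions could be read.

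Axin2 (mm9 chromosome 11, 108781663 to 108812097, plus strand) encodes a scaffold of the complex that degrades beta-catenin and is widely used as a readout of canonical signalling. It was at 5.04 FPKM in D0, 1.34 in D3, 0.357 in D6T-, 0.419 in D9T-, 2.36 in D12S+, 5.52 in D16S+, 19.8 in iPSCs and 4.88 in mESCs. In the other fractions it was at 1.44 FPKM in D6T+, 1.23 in D9T+, 0.924 in D12S- and 1.98 in D16S-. Axin2 was lowest in the Thy-1- cells of days 6 and 9, and highest in iPSCs. The fractions differed by -0.85 on day 6, -0.65 on day 9, 0.80 on day 12 and 1.13 on day 16. D12S+ exceeded D9T- by 1.24, iPSCs exceeded D16S+ by 1.67 and iPSCs exceeded mESCs by 1.82. D16S+ and D0, by contrast, were nearly level, with a difference of 0.11.

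Tcf7 and Lef1 differed most between the routes on days 12 and 16. Tcf7 (mm9 chromosome 11, 52065873 to 52096681, minus strand), which encodes TCF1, was at 5.99 FPKM in D0, 2.01 in D3, 2.63 in D6T-, 5.13 in D9T-, 19.9 in D12S+, 34.4 in D16S+, 23.1 in iPSCs and 42.8 in mESCs. In the other fractions it was at 5.58 FPKM in D6T+, 8.21 in D9T+, 6.16 in D12S- and 7.39 in D16S-. The SSEA-1+ fractions and the end points were thus the 4 highest libraries, and the Thy-1+ and SSEA-1- fractions stayed near D0. The fractions differed by -0.86 on day 6, -0.59 on day 9, 1.55 on day 12 and 2.08 on day 16. Against D0 the difference was 2.34 for D16S+ and 0.26 for D16S-.

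Lef1 (mm9 chromosome 3, 130813389 to 130927274, plus strand) was near or below 1 FPKM through day 9, at 0.587 FPKM in D0, 1.02 in D3, 0.847 in D6T- and 0.951 in D9T-. It then stood at 12.6 FPKM in D12S+, 7.91 in D16S+, 5.66 in iPSCs and 1.79 in mESCs. The other fractions held 0.294 FPKM in D6T+, 0.520 in D9T+, 1.04 in D12S- and 0.596 in D16S-. D12S+ was the highest library, and the level was lower again in each later stage of the route. The fractions differed by 0.51 on day 6, 0.36 on day 9, 2.73 on day 12 and 2.48 on day 16, and the last 2 values were the largest of any member on those days. D12S+ exceeded D9T- by 2.80, across the day on which the sorting marker was switched from Thy-1 to SSEA-1.

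Tcf7l1 (mm9 chromosome 6, 72576372 to 72739248, minus strand) was the most abundant TCF/LEF gene in every library. It was at 19.8 FPKM in D0, 11.1 in D3, 21.1 in D6T-, 29.1 in D9T-, 33.8 in D12S+, 39.0 in D16S+, 97.5 in iPSCs and 64.5 in mESCs. In the other fractions it was at 14.5 FPKM in D6T+, 24.1 in D9T+, 16.6 in D12S- and 20.3 in D16S-. The Thy-1- or SSEA-1+ fraction was the higher one on all 4 days, by 0.52 on day 6, 0.26 on day 9, 0.98 on day 12 and 0.91 on day 16. On day 12 it is close to 2-fold and passed it without the added 1, at 2.04 times in FPKM, and both late values passed it when libraries were scaled to the same total, at 1.03 and 1.02. D16S- was level with D0, at a difference of 0.03, and iPSCs exceeded D16S+ by 1.30.

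The composition of the TCF/LEF genes differed as well. Their summed FPKM, Tcf7l2 included, was 33.1 in D0, 21.3 in D3, 83.8 in D16S+, 34.7 in D16S-, 129 in iPSCs and 111 in mESCs. Tcf7l1 held from 46.5% of the sum in D16S+ to 75.5% in iPSCs. Tcf7 held 18.1% in D0, 41.0% in D16S+, 21.3% in D16S- and 38.5% in mESCs. Tcf7l2, which was second in D0 with 20.3%, held 3.03% in D16S+ and 2.20% in iPSCs. Genes that Tcf7l1 is known to repress in mouse embryonic stem cells were also highest in the libraries where Tcf7l1 was highest. The summed FPKM of Esrrb, Nanog, Tfcp2l1 and Klf2 was 13.1 in D0, 30.0 in D16S-, 430 in D16S+, 500 in iPSCs and 457 in mESCs. Esrrb and Nanog also belong to the pluripotency markers given above.

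The sorted fractions were then compared day by day over all members. On day 6, 3 members were at least 2-fold lower in D6T- than in D6T+ (Wnt5a, Wnt7b and Sfrp2) and 0 were higher, against 9.47% and 2.93% of all genes, or 12.4% in either direction. On day 9, 2 members were lower (Wnt5a and Sfrp2) and 0 higher, against 6.45% and 1.81%, with 8.26% of all genes in either direction. These calls depend on the pseudocount. With 0.1 FPKM in place of 1, 5 members were lower and 1 higher on day 6, where Axin2 (-1.75) and Tcf7 (-1.06) joined the lower ones and Lef1 (1.27) was the higher one, and on day 9 Axin2 (-1.36) was lower too. The share of all genes was not counted with 0.1 FPKM, so these larger counts have no background. On day 12, 3 members were higher in D12S+ than in D12S- (Wnt7b, Tcf7 and Lef1) and 0 lower, against 4.79% and 3.03% of all genes, or 7.81% in either direction. On day 16, 3 members were higher in D16S+ (Axin2, Tcf7 and Lef1) and 1 was lower (Wnt5a), against 11.8% and 15.2%, with 27% of all genes in either direction. In the SSEA-1 sorts, Tcf7 and Lef1 were thus past 2-fold on both days, Wnt7b on day 12 and Axin2 on day 16. The median over the members was -0.49 for day 6, -0.20 for day 9, 0.53 for day 12 and 0.61 for day 16, while that of all genes lay between -0.02 and 0.02. The marker used for sorting changed between days 9 and 12, so day and marker cannot be told apart here.

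**Figure D3:**
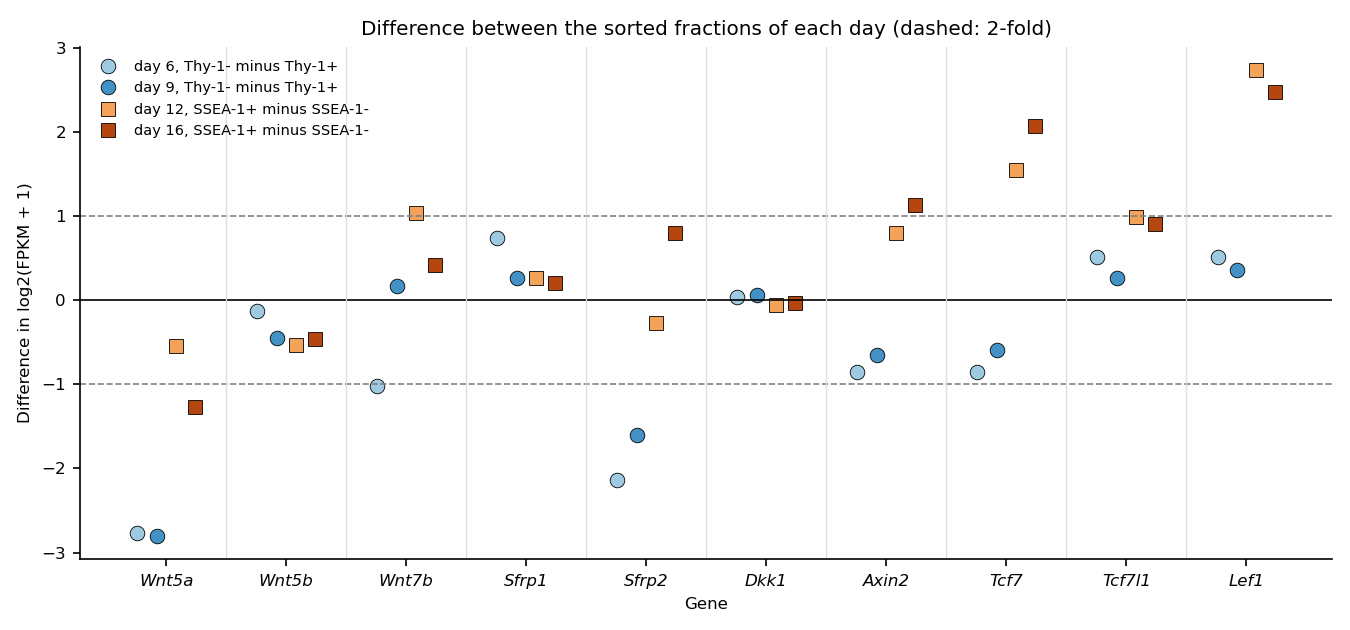
Difference in log2(FPKM + 1) between the sorted fractions for each of the 10 members, with circles for Thy-1- minus Thy-1+ (days 6 and 9) and squares for SSEA-1+ minus SSEA-1- (days 12 and 16), 1 pair of libraries per point, dashed lines at 2-fold. Wnt5a is below 0 on all 4 days and Tcf7l1 and Lef1 above 0 on all 4, whereas Axin2 and Tcf7 are below 0 on days 6 and 9 and above 0 on days 12 and 16.

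Across the whole conversion, the ligand Wnt5a and the nuclear factors stood at opposite ends. Between iPSCs and D0, 5 members were at least 2-fold higher (Tcf7l1 by 2.24, Lef1 by 2.07, Tcf7 by 1.78, Axin2 by 1.78 and Dkk1 by 1.13), against 18.7% of all genes. Dkk1 passed the filter only through its 1.33 FPKM in iPSCs, so its call carries little weight. With a 5 FPKM filter, 4 members were higher. Another 3 were at least 2-fold lower (Wnt5a, Wnt5b and Sfrp2), against 21.6%, or 40.3% in either direction. Between D16S+ and D0, 3 were higher (Lef1, Tcf7 and Sfrp1) and 3 lower (Wnt5a, Wnt5b and Sfrp2), against 20% and 20.9% of all genes, or 40.9% in either direction. Between D16S- and D0, 1 was higher (Sfrp1) and 4 lower (Wnt5a, Wnt5b, Sfrp2 and Axin2), against 12.8% and 11.4%, or 24.3% in either direction. Wnt5a, Wnt5b and Sfrp2 were thus at least 2-fold lower than in D0 in all 3 of these libraries, which share the D0 library. Between iPSCs and mESCs, 3 members were higher in iPSCs (Wnt7b, Axin2 and Lef1) and 1 was lower (Sfrp2), against 6.79% and 7.41% of all genes, or 14.2% in either direction. Axin2 and Lef1 are targets of canonical signalling, and the uncertain medium of these libraries applies to this comparison.

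The pathway at large was described with a wider list of 95 genes in 8 roles, the 10 members included, of which 81 reached 1 FPKM in at least 1 library. Between iPSCs and D0, 22 of the 81 were at least 2-fold higher and 19 lower, against 18.7% and 21.6% of all genes. The split was 25 to 14 when libraries were scaled to the same total, but 15 to 19 with a 5 FPKM filter. Between D16S+ and D16S-, 7 were higher and 21 lower, against 11.8% and 15.2% of all genes. The shares by role below are read against these same backgrounds, and roles of so few genes are described only. On day 16, 6 of 13 ligands and 5 of 11 secreted inhibitors were lower in D16S+ and 0 of either were higher. Feedback targets were split on day 16, with 4 of 14 higher and 4 lower. Between iPSCs and D0, 8 of 14 feedback targets were higher and 3 lower, and 4 of 13 nuclear factors were higher and 3 lower. Of 14 transduction genes, 12 were less than 2-fold apart, 1 was higher (Axin2) and 1 lower. These counts partly repeat the members. The higher feedback targets included Axin2, Tcf7 and Lef1 in both comparisons, and the higher nuclear factors included Tcf7, Tcf7l1 and Lef1. Genes with more than 1 role are counted in each.

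Genes of the wider list also differed within their roles. Wls, which carries Wnt ligands to the cell surface, went from 45.9 FPKM in D0 to 7.79 in iPSCs, and Porcn, which attaches the lipid that ligands need, from 3.08 to 73.9 FPKM. Fzd1, a receptor, was at 46.8 FPKM in D0, 15.9 in D16S-, 1.63 in D16S+ and 1.32 in iPSCs. Fzd10 went the other way, from 0.290 FPKM in D0 to 8.32 in iPSCs. The inhibitors Dkk2, Dkk3 and Frzb were at 32.3, 29.7 and 11.5 FPKM in D0 and at 0.0824, 1.50 and 0.0907 FPKM in iPSCs, unlike Sfrp1 and Dkk1. Notum, an enzyme that removes the lipid from ligands, was at 14.5 FPKM in iPSCs against 2.26 in D0. Tle4, a co-repressor that binds TCF/LEF factors, went from 2.82 to 31.3 FPKM, and Cdx1, a canonical target, was listed at 0 in D0 and stood at 28.0 FPKM in iPSCs. Ccnd1, a cell cycle gene often given as a target, and Apcdd1, an inhibitor, went against Axin2, from 283 to 56.8 FPKM and from 88.0 to 6.36 FPKM. The remaining non-members at least 4-fold apart on the log2(FPKM + 1) scale were Wnt8a (2.08), Fzd2 (-2.92), Rspo4 (-2.95) and Nkd2 (-2.09) between iPSCs and D0, and Sostdc1 (-2.15) between D16S+ and D16S-. Ctnnb1, which encodes beta-catenin, ranged only from 199 FPKM in D3 to 283 in D0. Ptk7, Ryk, Lgr4, Csnk1d, Pygo2 and Tle3 were likewise among the most abundant genes of their roles, and none was 4-fold apart in either comparison.

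**Figure D4:**
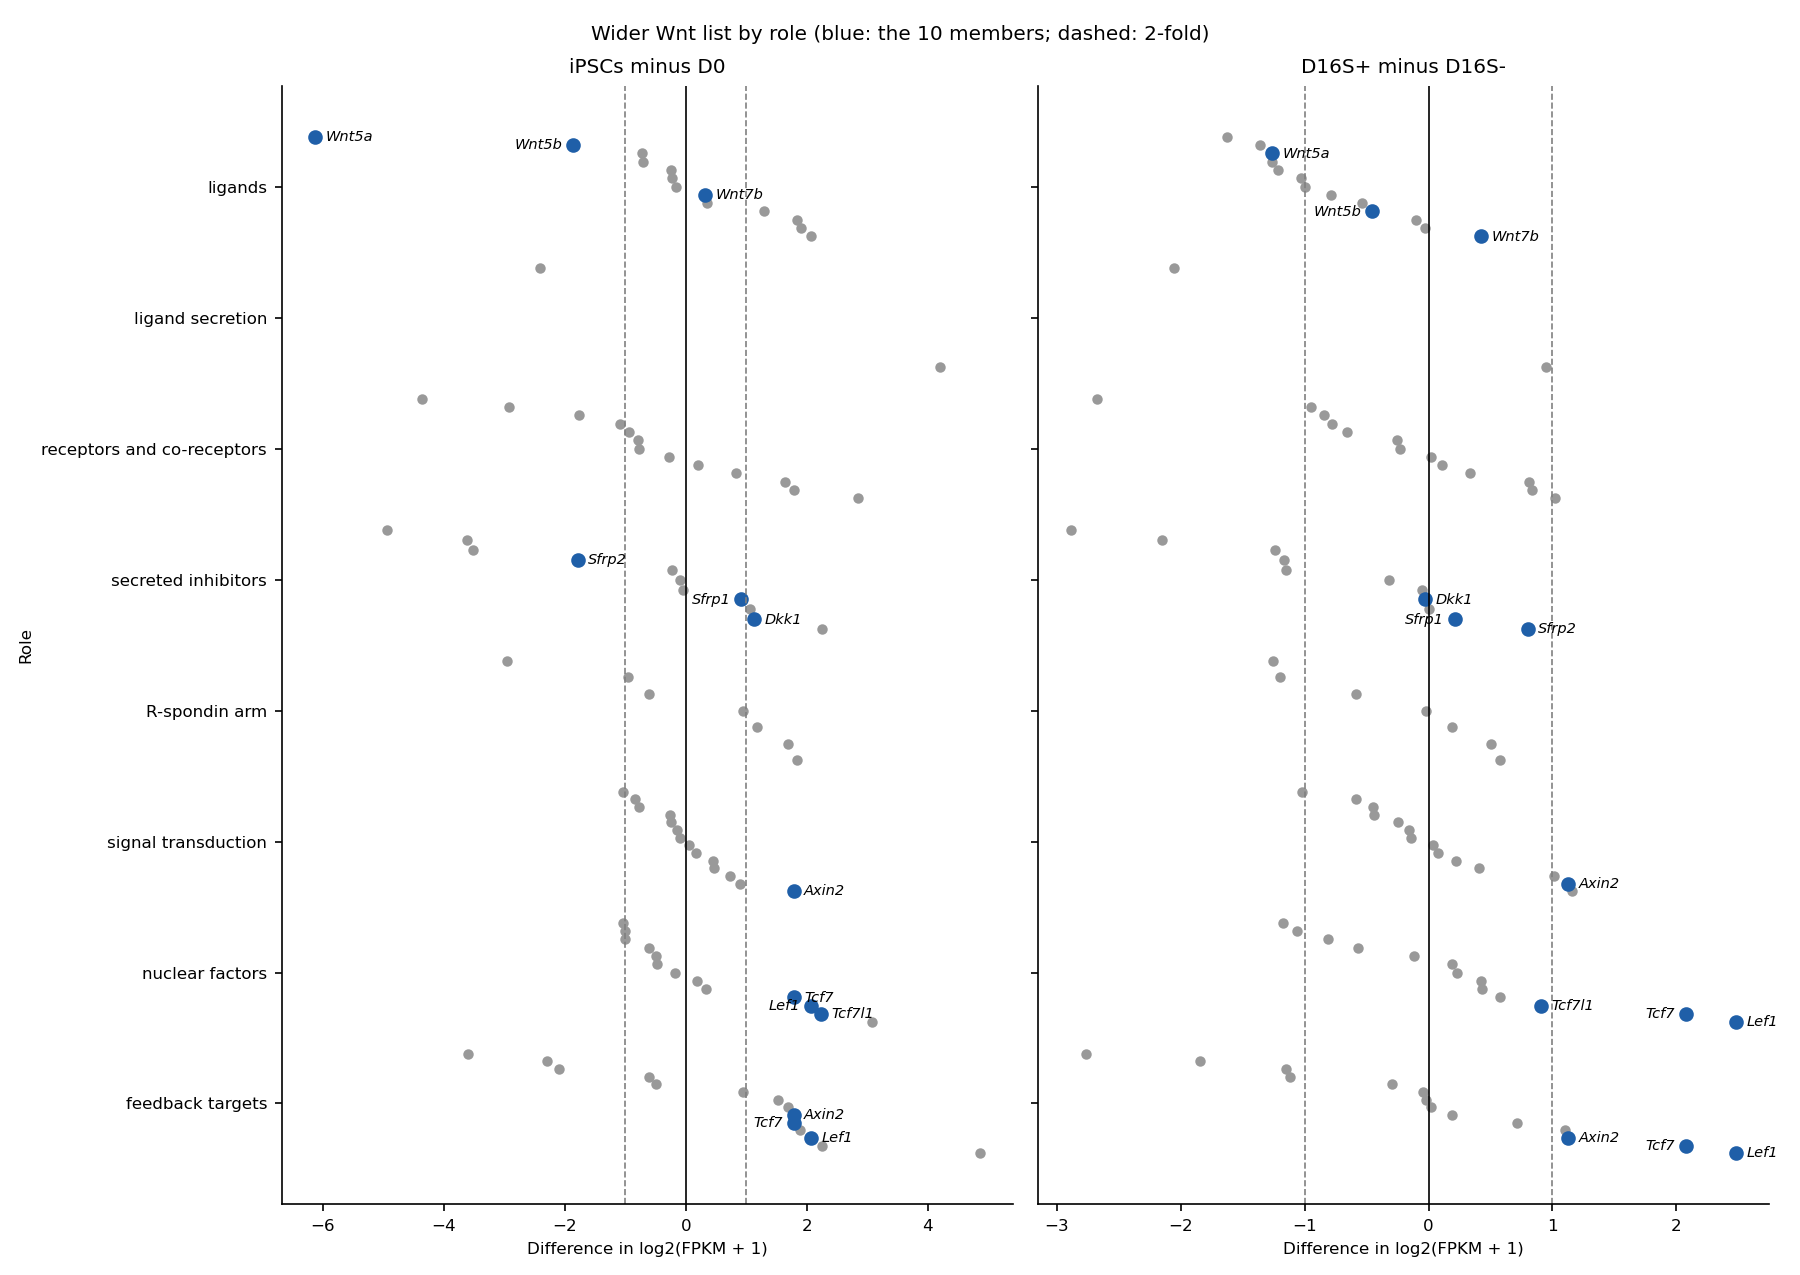
Difference in log2(FPKM + 1) for the 81 kept genes of the wider Wnt list, grouped by role on the vertical axis, between iPSCs and D0 (left) and between D16S+ and D16S- (right), 1 pair of libraries per panel, members in blue and dashed lines at 2-fold; genes with more than 1 role are drawn in each. Wnt5a lies at -6.13 on the left, and Tcf7 and Lef1 at 2.08 and 2.48 on the right.

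Finally, the genes with the profile closest to each member over the 12 libraries were sought, with the root mean square distance of the centred log2 values as the measure. The closest to Wnt5a were Gzme (0.26) and Pear1 (0.32), against a spread of Wnt5a itself of 1.97. The nearest genes of Wnt7b were further off, Rab15 at 0.57 and the member Axin2 at 0.72. Wnt7b and Axin2 thus followed a like course, low at days 6 and 9 and highest in iPSCs. Dkk1 was closest to Ajap1 (0.08) and Dkk4 (0.09), which stood at 1.35 and 1.08 FPKM in iPSCs. The closest to Tcf7 were Sptbn4 (0.36) and Hvcn1 (0.37), to Tcf7l1 Mif4gd (0.27) and 4930444M15Rik (0.29), and to Lef1 Tstd1 (0.33) and 2410017I17Rik (0.38). Those of Axin2 were Rcsd1 (0.41) and Sh3gl3 (0.42), of Sfrp1 Igfals (0.26) and Hnrnpa3 (0.28), of Sfrp2 Rab3il1 (0.40) and Fbln1 (0.41), and of Wnt5b Pkig (0.27) and Vstm4 (0.28). These distances are a description, to be read beside the spread of each member, which ran from 0.33 for Dkk1 to 1.97 for Wnt5a. Shared function was not examined.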

How the data were processed

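Values are FPKM from a gene table of 12 mRNA-Seq libraries, 1 per condition, grouped by their titles. Per the labels and methods, the authors mapped reads to mm9 with STAR, removed reads with over 2 mismatches or over 1 locus, and estimated the deposited FPKM and its interval with cuffdiff. Versions, annotation and library scaling are not given in the sources used here. The labels name a stranded TruSeq kit, the methods a TruSeq RNA kit. Another 12 columns of status words were not used. Genes with at least 1 FPKM in at least 1 library were kept, and differences were taken as log2(FPKM + 1) with Python 3.11.15, pandas 2.3.3 and numpy 2.4.6. No test was possible. Absolute depth is unknown, and relative depth came from the steps of low values under 0.5 FPKM. The functions were tested on simulated data. Alternatives were a pseudocount of 0.1, a fold of 4, no filter or a 5 FPKM filter, and 2 scalings.

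Members and lists were chosen with earlier results of these data known. Named were all members, the 2 most abundant non-members of each role, non-members at least 4-fold apart between iPSCs and D0 or D16S+ and D16S-, the 2 nearest profiles of each member, and 4 genes repressed by Tcf7l1. Positions are from GENCODE M1 (mm9), promoter windows from RefSeq. Other markers checked, for endothelium and primitive streak, had summed FPKM of 0.992 to 61.5 and 0.789 to 6.07. The endothelial sum was highest in mESCs, where Pecam1 was 61.1 FPKM but Cdh5 and Kdr were 0.243 and 0.209. Cdh5 was highest in D0, at 11.8 FPKM.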

Additional observations from a re-analysis of the deposited data

Results flagged for a closer look

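The difference between the sorted fractions changed sign between days for 5 members, and none of these changes was tested, since each fraction was 1 library. For Tcf7, the difference in log2(FPKM + 1) was -0.86 on day 6 (D6T- minus D6T+) and 2.08 on day 16 (D16S+ minus D16S-), 2.93 apart. For Sfrp2 it was -2.14 on day 6 and 0.80 on day 16, 2.94 apart. For Axin2 it was -0.85 on day 6 and 1.13 on day 16, 1.97 apart. For Wnt7b it was -1.02 on day 6 and 1.03 on day 12, 2.05 apart. The fifth was Dkk1, whose differences lay between -0.06 and 0.06 and which was below 1 FPKM in all these fractions. The sorting marker was Thy-1 on day 6 and SSEA-1 on days 12 and 16, so day and marker cannot be told apart.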

How the results depend on the processing

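With 1 library per condition, no leave-one-out value or test could be had. No paired analysis was possible because each group held 1 library and no result came from a test. No difference changed sign for a member under any alternative. With a pseudocount of 0.1 FPKM, members at least 2-fold apart numbered 6 on day 6 (1 higher, 5 lower) and 5 on day 12 (all higher), and 19 of 90 member differences moved by more than 0.5. In the wider list the numbers were then 30 on day 6, 14 on day 9 and 23 on day 12. At 4-fold, members numbered 1 on day 9, 1 on day 12, 2 on day 16, 2 for D16S- against D0, 3 for iPSCs against D0 and 1 for iPSCs against mESCs. The wider list then held 13 for D3 against D0, 6 on day 6, 1 on day 12, 7 on day 16, 18 for D16S+ against D0, 10 for D16S- against D0, 19 for iPSCs against D0 and 2 for iPSCs against mESCs. The share of all genes was counted at the main setting only. Counts at the other settings therefore have no background and show only how the counts move. Without a filter, with a 5 FPKM filter and under both scalings, the total count of members and of the wider list in each comparison stayed within 1.5 times its value. The split by direction in the wider list moved more. At the same total FPKM it went from 13 higher and 25 lower to 18 and 17 for D16S+ against D0. For D16S- against D0 it went from 16 and 17 to 17 and 11. With the 5 FPKM filter it went from 8 and 16 to 5 and 16 for D3 against D0. For iPSCs against D0, the 22 higher and 19 lower became 15 and 19 with that filter, but 25 and 14 at the same total FPKM. Scaling every library to the same total shifted the median difference of all genes by 0.14 for D3, 0.30 for D16S+, 0.19 for D16S- and 0.16 for iPSCs, each against D0. The 2 nearest genes were the least stable description: with a pseudocount of 0.1, at least 1 of the 2 differed for 9 of 10 members. Low values limit Dkk1, and Lef1 before day 12 and in the SSEA-1- fractions. They also limit Wnt7b on day 6 (0.140 FPKM in D6T-) and Wnt5a on day 16 (0.322 in D16S+). The same holds for Axin2 on days 6 and 9 (0.357 in D6T- and 0.419 in D9T-). With a pseudocount of 0.1, the difference was -2.56 for Wnt7b on day 6, and on day 16 it was -2.43 for Wnt5a and 3.52 for Lef1.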
